A study of Homo sapiens with 3 samples.

Results

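EMP1, EMP2, EMP3 and PMP22 form the epithelial membrane protein family, and their RNA was measured in the prostate cancer line 22RV1, which makes SPINK1 (a secreted trypsin inhibitor), after SPINK1 had been silenced. The members were the gene spots whose gene name on the array was one of these 4 symbols. They were 6 of the 58201 probes and 4 of the 17061 genes that passed a filter on brightness. The family was chosen by the log2 ratio of EMP1, which was below 0 on all 3 arrays, so the ratios of EMP1 are given as a description with no test. EMP2, EMP3 and PMP22 came in as its relatives and were tested.

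The proteins are small and tetraspan, with both ends of the chain in the cytoplasm, and they belong to the wider fold group that includes the claudins of tight junctions. PMP22 is a component of the compact myelin that Schwann cells wrap around peripheral axons, and changes of its gene dose cause inherited neuropathies. EMP1 is abundant in squamous epithelia and is found at cell junctions. EMP2 influences which integrins and caveolins reach the cell surface, and EMP3 is widely expressed, blood cells included.

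Cells were stable lines made with lentiviral pGIPZ hairpins and selected with puromycin. The 3 silenced lines (22RV1-shSPINK1-1, 22RV1-shSPINK1-2 and 22RV1-shSPINK1-3, here hairpins 1, 2 and 3) each carried a different hairpin, and the control line 22RV1-shSCRM carried a scrambled hairpin. Neither the labels nor the methods say whether a line was a clone or a pool. Cy5-labelled RNA of each silenced line was hybridized with Cy3-labelled 22RV1-shSCRM RNA on 1 of 3 Agilent arrays of 60-base probes, which gave 1 array per hairpin. A log2 ratio below 0 therefore means less signal in the silenced line.

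SPINK1 itself had log2 ratios of -3.71, -3.65 and -3.89 with hairpins 1, 2 and 3, a mean of -3.75 ± 0.12 (SD, n = 3), with an adjusted p of 6.12e-07 by limma. No array had swapped dyes, so a dye effect of a gene and an effect of the hairpins cannot be told apart. RNA of 22RV1-shSCRM was the control on every array, and the methods do not state whether it was a single preparation. If it was, no error below holds the variation among control cultures. Nothing says how many cultures or RNA extractions each line had, so the p-values rest on 3 arrays. They use the spread of a gene between arrays, drawn by limma toward the spread typical of all genes. Each array held 60901 gene spots, of which 41.3% to 46.8% were well above background in Cy5 and 38.8% to 42.6% in Cy3. The luminal prostate markers KLK3 and HOXB13 were well above background on all arrays, and KRT5, KRT14 and TP63 of basal cells were not.

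The probes of the family are shown because each gene rests on 1 or 2 of them. The EMP1 probe lies at chr12:13369562-13369621 (hg19, plus strand), position 2657 of its transcript NM_001423. The EMP2 probes lie on the minus strand at chr16:10626700-10626759 (A_23_P106682, position 700 of NM_001424) and chr16:10622624-10622683 (A_23_P304682, position 4776). The PMP22 probe lies at chr17:15133208-15133267 on the minus strand, position 1687 of NM_000304. The EMP3 probe that represents the gene lies at chr19:48832675-48832734 on the plus strand, position 501 of NM_001425. The array's annotation gives the transcript and the position in it, not the exon or the untranslated region. Bases 31 to 60 are printed for EMP1, EMP2 and PMP22, and the whole probe for EMP3. Capitals mark the 8-base run TGTATTGG, which the EMP1 and PMP22 probes have in common and which is the longest run shared by any pair of the 6 probes. The other pairs shared runs of 5 or 6 bases.

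EMP1: tctagtacTGTATTGGgcttcttcgttaat
PMP22: TGTATTGGccaccaactgtagatgtatata
EMP2 (A_23_P106682): cagaatccacattcagataaccattttgta
EMP2 (A_23_P304682): aaactcgctaatagtttaaaggttacttac
EMP3: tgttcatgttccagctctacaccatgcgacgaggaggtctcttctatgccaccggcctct

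Next, each member was read on each array, starting with the brightness before any normalization. The EMP1 spot had a Cy3 brightness, from shSCRM RNA, of 195, 203 and 194 scanner units on the arrays of hairpins 1, 2 and 3. Its Cy5 brightness, from shSPINK1 RNA, was 78.1, 50.9 and 68.2 units. The control signal was thus nearly the same on the 3 arrays, and the lowest Cy5 signal was that of hairpin 2. The local background was 20 or 21 units in Cy3 and 15 or 16 in Cy5, and both channels were well above it on every array. These levels include a brightness difference between the dyes that applies to all genes, since the median gene spot had 32 to 38.2 units in Cy3 and 17.7 to 24.2 in Cy5.

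**Figure D1:**
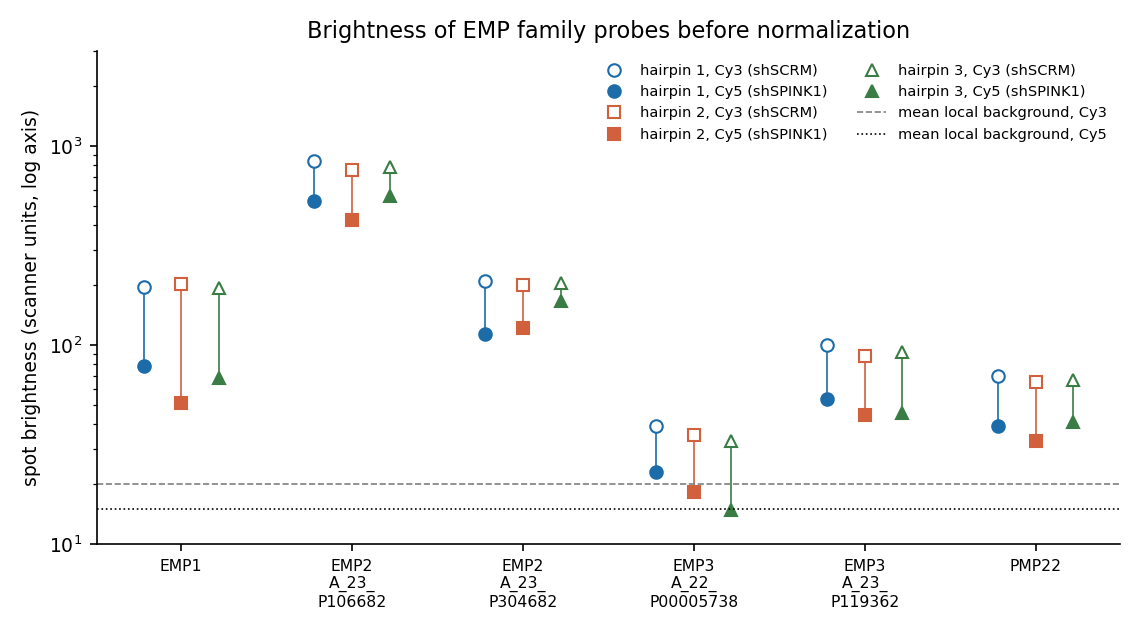
Brightness of the 6 family probes before normalization, in scanner units on a log axis, with open markers for Cy3 (shSCRM), filled markers for Cy5 (shSPINK1), lines joining the channels of 1 array, and horizontal lines at the mean local background of these spots. EMP1 has the widest gap between the channels, from 203 down to 50.9 with hairpin 2, and the EMP3 probe A_22_P00005738 lies near background.

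After background correction and loess normalization, the log2 ratio of EMP1 was -0.63, -1.01 and -0.66 with hairpins 1, 2 and 3. These are levels 1.54, 2.01 and 1.58 times lower in the silenced lines than in 22RV1-shSCRM. The mean was -0.76 ± 0.21 (SD, n = 3), or 1.70-fold lower, whereas the median over all genes was -0.01. EMP1 was below -0.5 on all 3 arrays, as were 18 of the 17061 genes (0.106%), and its mean was the 6th lowest. Both statements describe the values for which EMP1 was chosen. In bulk RNA, fewer cells that express a gene and less of its RNA per cell cannot be told apart.

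Hairpin 2 gave the lowest EMP1 ratio, 0.38 below that of hairpin 1 and 0.34 below that of hairpin 3, while hairpins 1 and 3 differed by 0.04. EMP1 has a single spot on each array, so its own spot-to-spot error was not measured. Probes of similar brightness that are printed several times (32 to 36 of them per array) had a pooled SD between spots of 0.0765, 0.0637 and 0.0708 on the 3 arrays. This covers printing within an array only, and with 1 array per hairpin a difference between hairpins could not be tested. SPINK1 itself had the highest of its 3 ratios with hairpin 2.

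The size of the EMP1 ratio depended on the processing. An offset draws ratios of dim spots toward 0, and with an offset of 16 in place of 50 the mean was -0.995. The log ratios of Agilent's Feature Extraction software have no such offset and carry their own background and dye correction. In them EMP1 stood at -0.96, -1.71 and -1.02, with a mean of -1.23 ± 0.42 (SD, n = 3), or 2.35-fold lower. The order of the hairpins was the same as with the offset of 50. The value without hairpin 2 was -0.64, and without hairpin 1 it was -0.83.

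**Figure D2:**
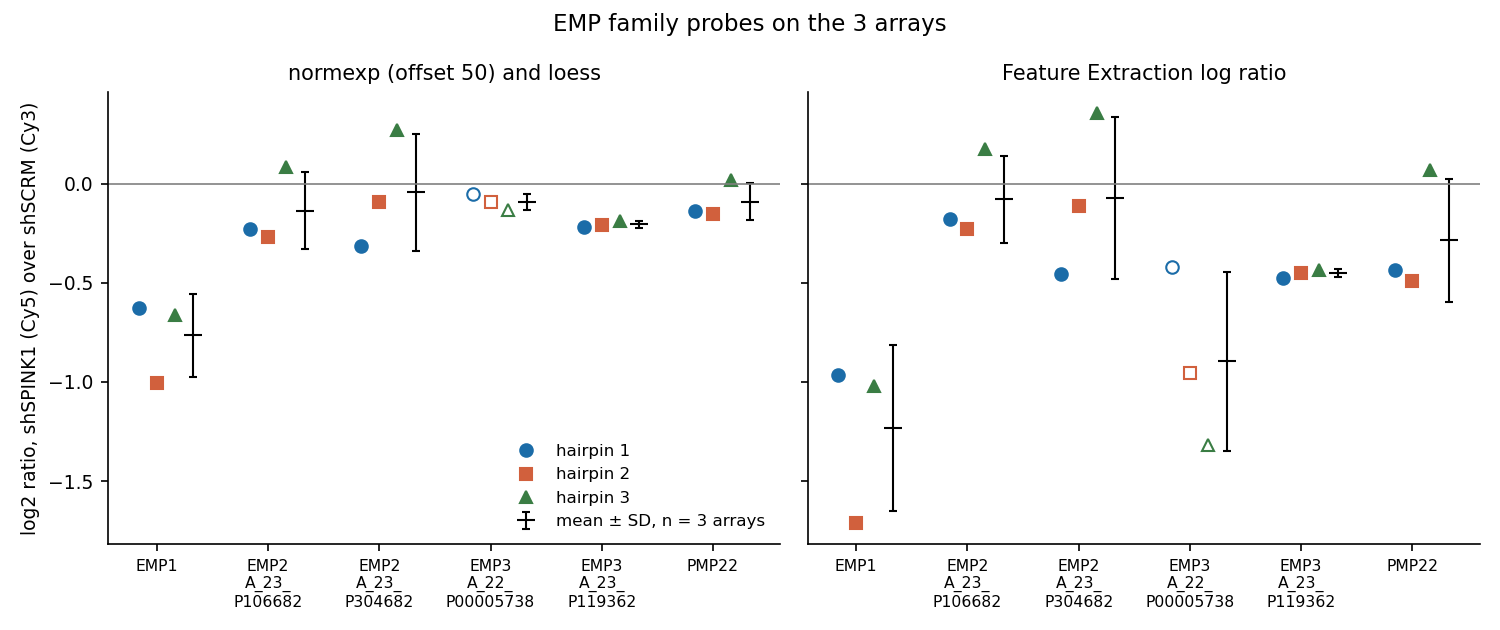
Log2 ratio of shSPINK1 (Cy5) over shSCRM (Cy3) for each family probe, by hairpin, with the mean ± SD of 3 arrays, after normexp and loess (left) and as Feature Extraction gave it (right), where open markers are a probe that did not pass the filter. EMP1 lies between -0.63 and -1.01 on the left and between -0.96 and -1.71 on the right, below the kept probes of the other members on every array.

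None of the other 3 members passed both thresholds set for all genes, which required a mean log2 ratio above 0.5 or below -0.5 as well as an adjusted p under 0.05 (limma). Of all genes tested, 0.393% passed them as lower and 0.334% as higher, or 0.727% in either direction. These shares depend on the normalization: 67 genes were lower and 57 higher with loess, and 1965 and 2 with median centring. Whether EMP1 differed from its relatives was not tested, because EMP1 was picked for its value.

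EMP3 had the smallest spread of the family. Its representing probe had a Cy5 brightness of 53.3, 44.4 and 45.6 units and a Cy3 brightness of 100, 88.3 and 92.3 units. The log2 ratio was -0.22, -0.21 and -0.19 with hairpins 1, 2 and 3, so all 3 arrays lay below 0 and close together. The mean was -0.21 ± 0.02 (SD, n = 3). With limma's standard error of 0.048, larger than this SD, the 95% confidence interval was -0.32 to -0.09 and the adjusted p was 0.0346. An adjusted p under 0.05 with a mean of any size below 0 was seen for 8.72% of all genes. The mean of EMP3 was at the 10.1th percentile of all genes. The call was lost without hairpin 2 (adjusted p 0.123 by limma), without hairpin 3 (0.145), with the Feature Extraction ratios (0.110) and in the deposited table (0.117), although the Feature Extraction ratio was larger, with a mean of -0.45.

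A second probe that carries the name EMP3, A_22_P00005738 (chr19:48825137-48825196, plus strand), is assigned to the transcript ENST00000599704 and to a noncoding gene name, lnc-EMP3-1. Its Cy5 brightness was 23.1, 18.2 and 14.9 units and its Cy3 brightness 39, 35.4 and 33 units. It was not well above background in either channel of any array, so its ratios of -0.05, -0.09 and -0.13 were not used.

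EMP2 was measured by 2 kept probes. The brighter, A_23_P106682, had 530, 425 and 557 units in Cy5 and 839, 759 and 782 in Cy3. Its log2 ratio was -0.23, -0.27 and 0.09 with hairpins 1, 2 and 3. The mean was -0.14 ± 0.19 (SD, n = 3), the 95% confidence interval ran from -0.32 to 0.04, and the adjusted p was 0.276 by limma.

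The dimmer EMP2 probe, A_23_P304682, gave -0.31, -0.09 and 0.27, with a mean of -0.04 ± 0.30 (SD, n = 3). Both probes were below 0 with hairpins 1 and 2 and above 0 with hairpin 3, although they lie at positions 700 and 4776 of the transcript. The interval of the brighter probe includes both 0 and the mean of EMP3.

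PMP22 had its probe printed 10 times on each array, which gives its printing error directly. The mean brightness was 39.2, 32.9 and 40.9 units in Cy5 and 70.1, 64.9 and 66.7 in Cy3, and every spot used was well above background in both channels. The log2 ratio was -0.14, -0.15 and 0.02 with hairpins 1, 2 and 3, with an SD between spots of 0.0848, 0.0668 and 0.100. Single spots ranged from -0.32 to 0.02, from -0.25 to -0.04 and from -0.08 to 0.26, so hairpin 3 overlapped with the others spot by spot. On the array of hairpin 3, 9 spots were used, since 1 was set aside as an outlier. The mean over the arrays was -0.09 ± 0.09 (SD, n = 3), the 95% confidence interval ran from -0.22 to 0.04, and the adjusted p was 0.325 by limma. With the Feature Extraction ratios the mean was -0.29 and in the deposited table -0.28, with an adjusted p of 0.273 and 0.286.

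**Figure D3:**
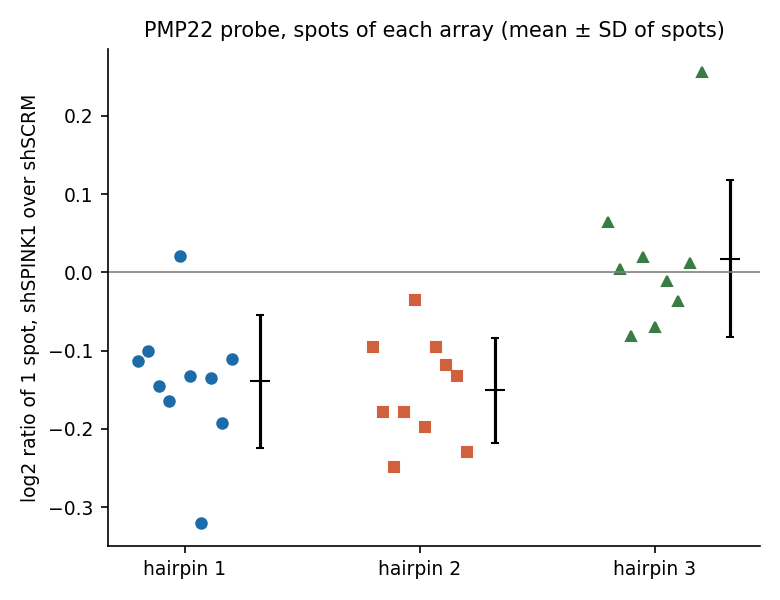
Log2 ratio of every spot of the PMP22 probe used on each array, with the mean ± SD of the spots (n = 10, 10 and 9 spots for hairpins 1, 2 and 3). Spots with hairpins 1 and 2 lie below 0 except 1 spot at 0.02, and spots with hairpin 3 lie around 0, with a highest spot of 0.26.

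EMP2 and PMP22 thus had the same signs by hairpin, below 0 with hairpins 1 and 2 and above 0 with hairpin 3, as had 7.90% of all genes. The PMP22 value with hairpin 3 was 0.02, smaller than its SD between spots of 0.100, so its sign was not resolved. A pair of matrix genes of fibroblasts had the same signs by hairpin as EMP2, without passing an adjusted p under 0.05. DCN, encoding decorin, stood at -0.59, -0.41 and 0.17 (adjusted p 0.200 by limma), and LUM, encoding lumican, at -0.48, -0.45 and 0.05 (0.100). Of the 5 fibroblast markers examined, COL1A1 was also well above background, at -0.07, 0.02 and 0.02, and COL1A2 and COL3A1 were not. The summed brightness of the 5 markers before normalization was 342 to 521 units in Cy5 and 712 to 819 in Cy3. Most of it came from LUM, with 196 to 326 units in Cy5 and 416 to 513 in Cy3. These sums include background and the brightness difference between the dyes that applies to all genes. The part of these markers in the EMP2 and PMP22 values was not tested.

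The wider fold group was examined through 26 non-claudin relatives, all on the array, of which 9 were measured above background. None of the 9 passed both thresholds or an adjusted p under 0.05 alone. Their median log2 ratio was -0.07, beside -0.01 for all genes. On all arrays 4 were below 0 and 1 above 0, beside 29.0% and 21.3% of all genes. LHFP, named for its fusion in a lipoma, had the largest value, 0.15, 0.09 and 0.37, with a mean of 0.20 and an adjusted p of 0.0846 by limma. It passed an adjusted p under 0.05 with no background correction (0.37, adjusted p 0.0399) and with an offset of 16 (0.33, adjusted p 0.0495), stood at 0.61 with the Feature Extraction ratios (adjusted p 0.141), and was at 0.12 without hairpin 3. PERP, a desmosomal protein that p53 induces, stood at -0.28, -0.22 and 0.02, which are the same signs by hairpin as those of EMP2 and PMP22 (mean -0.16, adjusted p 0.167). CLDND1 had a mean of -0.14 (adjusted p 0.181), which was -0.06 without hairpin 2. The other 6 lay between -0.11 and 0.05.

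Claudins seal tight junctions and set what passes between epithelial cells. Of 23 on the array, 9 were measured. Their median was -0.09, and 6 were below 0 on all 3 arrays and none above, beside 29.0% and 21.3% of all genes. CLDN3, CLDN12 and CLDN7 had an adjusted p under 0.05, all lower, beside 8.72% of all genes lower at that p. None passed the size of 0.5. CLDN3, a barrier claudin of glandular epithelia, had log2 ratios of -0.41, -0.39 and -0.43, with a mean of -0.41 ± 0.02 (SD, n = 3) and an adjusted p of 0.00657 by limma. CLDN12 had -0.40, -0.34 and -0.32, with a mean of -0.35 (adjusted p 0.00889). CLDN7, which is found along the lateral membrane as well as at tight junctions, had -0.24, -0.17 and -0.28, with a mean of -0.23 (adjusted p 0.0287). For CLDN3 and CLDN12 an adjusted p under 0.05 was kept in 9 of 11 alternative settings and lost with the Feature Extraction ratios and the deposited table. For CLDN7 it was kept in 5, and was lost without hairpin 2 (0.0615) and without hairpin 3 (0.164) among others. The other 6 claudins lay between -0.10 and 0.16.

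A list of 21 genes that the literature links to EMP or PMP22 proteins held integrins, focal adhesion kinases, caveolins, receptors, junction proteins and secretory pathway proteins. It was measured for 19 genes, with a median of -0.14. Of these, 11 were below 0 and 4 above 0 on all arrays, beside 29.0% and 21.3% of all genes. ITGB1, the integrin beta subunit whose surface level EMP2 is known to affect, was higher, at 0.28, 0.33 and 0.34, with a mean of 0.32 ± 0.03 (SD, n = 3) and an adjusted p of 0.0112 by limma. Of all genes, 4.77% were higher and 8.72% lower at an adjusted p under 0.05. CPNE3, encoding copine 3, a calcium-dependent membrane-binding protein, stood at -0.20, -0.43 and -0.31 (mean -0.31, adjusted p 0.0188). F11R, the junctional adhesion molecule A, stood at -0.32, -0.35 and -0.25 (mean -0.31, adjusted p 0.0130), but its other kept probe had a mean of 0.03. Each of the 3 calls held in 7 of 11 alternative settings. ITGB1 was at 0.05 when arrays were centred on the median without loess, where the median of all genes was -0.23. Without hairpin 3 all 3 calls were lost, with an adjusted p of 0.0697, 0.0919 and 0.0566, and without hairpin 2 that of CPNE3 was lost as well, at 0.0716. The other 16 genes lay between -0.20 and 0.26, none with an adjusted p under 0.05.

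Most genes that accompany EMP1 in squamous epithelia and PMP22 in peripheral myelin did not pass the filter on brightness in these cells. Of 14 genes of squamous differentiation, 3 were measured. ANXA1, encoding annexin A1, had a mean of 0.20 ± 0.20 (SD, n = 3) and was at 0.43 with hairpin 1 and 0.09 with each of the others (adjusted p 0.128 by limma). SPRR1A and TGM1, of the cornified envelope, had means of 0.04 and 0.03. Both were below 0 with median centring, where the median of all genes was -0.23, and TGM1 also without hairpin 1. Of 8 hemidesmosome and laminin genes, 6 were measured, with a median of -0.01. PLEC stood at -0.09, DST at 0.05 and LAMA3 at 0.04, none with an adjusted p under 0.05.

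Of 11 genes of peripheral myelin and Schwann cells, 3 were measured, and SOX10 was among those not kept by the filter. CNP, an enzyme of myelin that other cells also make, stood at -0.42, -0.39 and -0.30, with a mean of -0.37 (adjusted p 0.00857 by limma), and its other kept probe had a mean of -0.06. The mean of both probes was -0.22 (adjusted p 0.0407), and the call was lost with the Feature Extraction ratios (0.119) and the deposited table (0.221). GJB1, the connexin of gap junctions in Schwann cells and in glandular epithelia, stood at -0.21, -0.14 and -0.24 (mean -0.20, adjusted p 0.0441). The GJB1 call was lost without each of the 3 arrays in turn. It was also lost with the Feature Extraction ratios (mean -0.57, adjusted p 0.110 by limma) and the deposited table (mean -0.57, adjusted p 0.117). MBP had a mean of -0.04 (adjusted p 0.671). Across the 6 lists, no gene passed both thresholds, beside 0.727% of all genes.

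**Figure D4:**
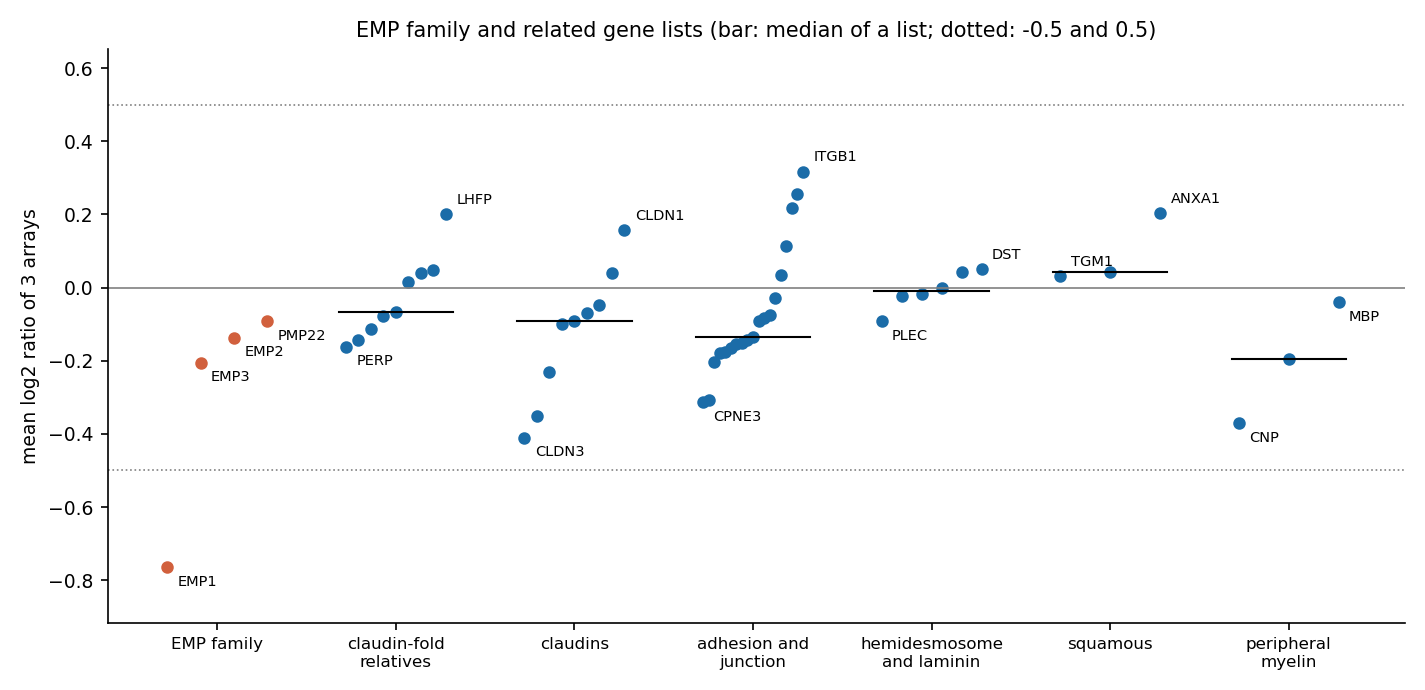
Mean log2 ratio over 3 arrays of each measured gene, for the EMP family and 6 lists of related genes, with a bar at the median of each list and dotted lines at the size threshold of 0.5. EMP1 at -0.76, which was chosen for its low ratios, is the only point beyond a dotted line. The lists lie between -0.41 (CLDN3) and 0.32 (ITGB1).

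The genes whose 3 ratios were nearest to those of EMP1 were found by Euclidean distance over the 3 arrays, and 4 of them are given. They were chosen for this likeness and share the arrays and the control RNA with EMP1. The nearest was LOC101929612, at -0.41, -0.89 and -0.77 (distance 0.268), which also had its lowest ratio with hairpin 2. The transcript ENST00000472161 (distance 0.316, mean -0.69), RARG, the retinoic acid receptor gamma (0.319, mean -0.67), and DMTN, an actin-bundling protein (0.341, mean -0.62), followed. The hairpins of these last 3 lay closer together than those of EMP1, with an SD of 0.03 to 0.07.

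Finally, the genes beside EMP1 on chromosome 12 were read, to see whether the low ratio extended along the chromosome. Within 500 kb of the EMP1 probe 9 genes were measured, none passed both thresholds, and their median was -0.02. All 9 lay on the same side of EMP1, none nearer than 133 kb, so no gene on the other side was read. KIAA1467, 133 kb away, stood at -0.28, -0.39 and -0.50, with a mean of -0.39 ± 0.11 (SD, n = 3) and an adjusted p of 0.0103 by limma. The probe next to it, that of GSG1, itself a member of the wider fold group, stood at -0.09, 0.08 and 0.15, with a mean of 0.05. CDKN1B, the cell cycle inhibitor p27, had a mean of -0.15 (adjusted p 0.0943) and HEBP1 of -0.13 (adjusted p 0.148). Around EMP2, EMP3 and PMP22, 4, 28 and 6 genes were measured within the same distance and none passed both thresholds.

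**Figure D5:**
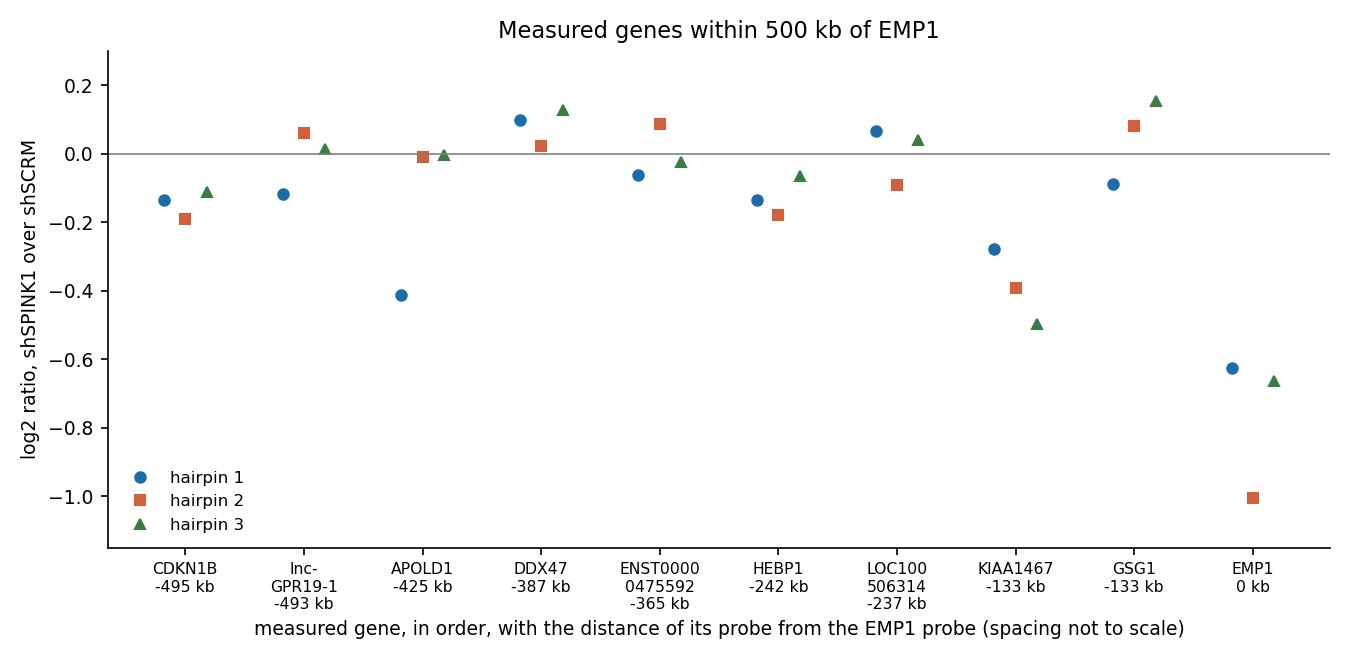
Log2 ratio of shSPINK1 over shSCRM by hairpin for EMP1 and the 9 measured genes within 500 kb of it, in order along the chromosome with the distance of each probe in kb (spacing not to scale). EMP1, at -0.63 to -1.01, lies below every neighbour, and KIAA1467 is the only neighbour below -0.25 with all 3 hairpins.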

How the data were processed

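The authors deposited the Agilent Feature Extraction 11.5.1.1 output of 3 dual-color arrays, with unnormalized intensity of each spot and its local background, a log10 ratio already corrected for background and dye (used here as log2), and a table of log2 values by gene name. For genes with 1 probe, at least 99.99% of the deposited log2 values differed by no more than 0.02 from the log2 quotient of Cy5 and Cy3 processed signals. The methods state Lowess normalization and Benjamini-Hochberg adjustment. Here, in R 4.3.3 with limma 3.58.1, mean signals were corrected by normexp (offset 50). Control spots and outlier spots (0.203% of the gene spots) were set aside, and loess was run within arrays. A probe was kept when well above background in 1 channel on all 3 arrays (21443 of 58201), and the brightest kept probe represented its gene (17061 genes). Means were tested against 0 with lmFit and eBayes, and p-values were adjusted over all genes. The step was tested on simulated data. The number of arrays limits the precision. Members and lists were chosen with earlier results of these data known. Genes named were the 4 members, SPINK1, of each list those past both thresholds and the 3 largest means, and the 5 nearest to EMP1, of which 1 is not reported here; markers, neighbours of EMP1 and single examples were added. Alternatives covered background correction, normalization, source, filter, probe rule, size threshold and leaving out each array.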

Additional observations from a re-analysis of the deposited data

How the results depend on the processing

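EMP1 was chosen for ratios below 0 on all 3 arrays, so its sign when 1 array was left out was fixed in advance. Its single probe gave the same -0.76 under the other filters and with the mean of probes. Its mean log2 ratio was -1.23 both with the Feature Extraction ratios and with the deposited table. It was -1.02 with median centring, -0.995 with an offset of 16, and -0.83 to -0.64 when 1 array was left out. Median centring in place of loess moved the median of all genes to -0.23; relative to it EMP1 was at -0.79 and PMP22 at 0.02. With median centring EMP2 (-0.49, adjusted p 0.00107) and PMP22 (-0.21, adjusted p 0.0139) passed the adjusted p by limma, as did PERP (-0.50), CLDND1 (-0.49), PLEC (-0.39) and MBP (-0.29). Under the same setting DST (-0.054), SPRR1A (-0.22) and TGM1 (-0.11) turned negative, but none lay below the median of all genes. TGM1 ranged from -0.0072 to 0.080 when 1 array was left out. Leaving out 1 array gave -0.25 to -0.07 for EMP2, -0.21 to -0.20 for EMP3 and -0.15 to -0.06 for PMP22. EMP3 was at -0.45 both with the Feature Extraction ratios and with the deposited table, and its adjusted p was then over 0.05. Over all genes, 67 lower and 57 higher became 3 and 0 with the Feature Extraction ratios and with the deposited table, 1965 and 2 with median centring, and 1487 and 814 with no size threshold. There were 113 lower with an offset of 16, 34 higher with the mean of probes, and 47 to 129 higher when 1 array was left out. The 0 genes past both thresholds became 3 claudins, 2 adhesion genes and 1 myelin gene with median centring, and 3, 3 and 2 without the size threshold. The causes were not tested. A slide or scan block was not run, since the arrays shared 1 slide and 1 scan. No paired analysis was possible because there is no other group with the same replicate numbers; each ratio is already the difference of both RNAs within an array. Ratios of EMP1, EMP3 and PMP22, whose Cy5 signals lay within a few times the background, are limited by signal.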
